A study of Mus musculus with 14 samples.

Results

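Intestinal crypts lacking Atoh1 were compared between mouse colon and ileum, using the 2 libraries titled Colon KO and the 2 titled Ileum KO, which are 4 of the 14 RNA-seq libraries of the study. The groups were taken from the sample titles, so no measured value chose them. The KO mice were Atoh1lox/lox;VilCreERT2, with both Atoh1 alleles floxed and a tamoxifen-dependent Cre recombinase driven by the Villin promoter, which is active in intestinal epithelium. The littermates labelled WT (2 libraries per tissue) were Atoh1lox/WT;VilCreERT2, with 1 floxed allele and the same transgene. KO and WT mice were 6 to 8 weeks old. A further 3 libraries per tissue held live (7AAD-negative) GFP-positive cells sorted from crypts of Atoh1GFP/GFP mice, which make a functional ATOH1-GFP fusion. The labels name no tamoxifen dose and no time after induction, and they do not say which libraries came from separate mice, so p-values measure the spread between these libraries.

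ATOH1 is the basic helix-loop-helix transcription factor that commits crypt progenitors to the secretory lineage (goblet, Paneth, enteroendocrine and other secretory cells). Without it, crypt cells take the absorptive path, so what remains is mainly stem cells, dividing progenitors and enterocytes or colonocytes. In the ileum these cells digest and take up nutrients and recover bile acids, whereas colonocytes absorb salt and water and live largely on short-chain fatty acids made by bacteria. The comparison asks which of these regional differences are measured when the secretory lineage is depleted.

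Library depth was alike in the 4 KO libraries, with 9992947 to 10768362 counts assigned to genes. The 2 libraries of a KO group differed beyond sampling noise, with a mean chi-square of 10.3 per gene in colon and 10.5 in ileum. The WT libraries, which entered the same estimate of spread, differed more, with 21.7 in colon and 84.8 in ileum. All levels are CPM, read counts relative to library size after TMM scaling. Atoh1 stood at 6.7 and 7.62 CPM in colon KO and 1.34 and 0.695 CPM in ileum KO, against 58.3 to 81.1 CPM in colon WT and 51.2 to 52.5 CPM in ileum WT. A remainder of its RNA was thus measured in KO, more in colon than in ileum (log2 difference 2.81 ± 0.31, adjusted p = 0.0011). In bulk crypts, fewer cells of a type and less RNA per cell cannot be told apart. The epithelial marker list summed to 20267 and 20526 CPM in colon KO and 21296 and 19903 CPM in ileum KO, with none of its 12 members at 0 in any KO library. In a principal component analysis of the 8 crypt libraries the first component (64.9% of the variance) separated colon from ileum, and on the second (15.2%) ileum WT 2 stood apart. In both tissues the library numbered KO 2 held Xist RNA (891 CPM in colon and 1151 CPM in ileum, against 2.42 and 3.39 CPM in the KO 1 libraries). Ddx3y, on the Y chromosome, had the reverse pattern, at 54.9 and 50.8 CPM in the KO 1 libraries and 0.181 and 0.0993 CPM in the KO 2 libraries. The 2 KO libraries of a tissue are thus of opposite sex by these genes and not repeats of 1 animal. The 4 WT libraries were at 2.67 to 6.88 CPM of Xist, so this gene did not separate them. Nlrp1b stood at 9.87 and 9.17 CPM in colon WT 1 and ileum WT 1. It stood at 0.0891 and 0.108 CPM in colon WT 2 and ileum WT 2. What part of the spread between WT libraries is technical was not tested.

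Of 14415 genes tested with edgeR's quasi-likelihood test, 3699 (25.7%) were called at an adjusted p under 0.05 in colon KO against ileum KO. Among them, 1884 (13.1%) were higher in colon and 1815 (12.6%) higher in ileum. The fitted difference exceeded 2-fold for 1124 of the colon genes and 696 of the ileum genes, and 8-fold for 398 and 228. For 7875 genes (54.6%) the 95% interval of the difference lay inside 2-fold either way, and 6767 of these were not called. The median log2 difference over all genes was -0.02. Leaving out 1 KO library lowered the counts, to 1117 and 927 without colon KO 1, 886 and 717 without colon KO 2, 1000 and 939 with ileum KO 1 left out, and 996 and 968 with ileum KO 2 left out (colon and ileum). No called gene named here changed sign in any of these fits. Of 99 named genes not called, 45 were called in some alternative fit, so a gene that did not pass may still differ. Members of a gene list were tested only where they passed a filter on low counts, so each list is given with its number of entries and tested genes. The shares over all genes, 13.1% higher in colon and 12.6% higher in ileum, are the background for every list.

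**Figure D1:**
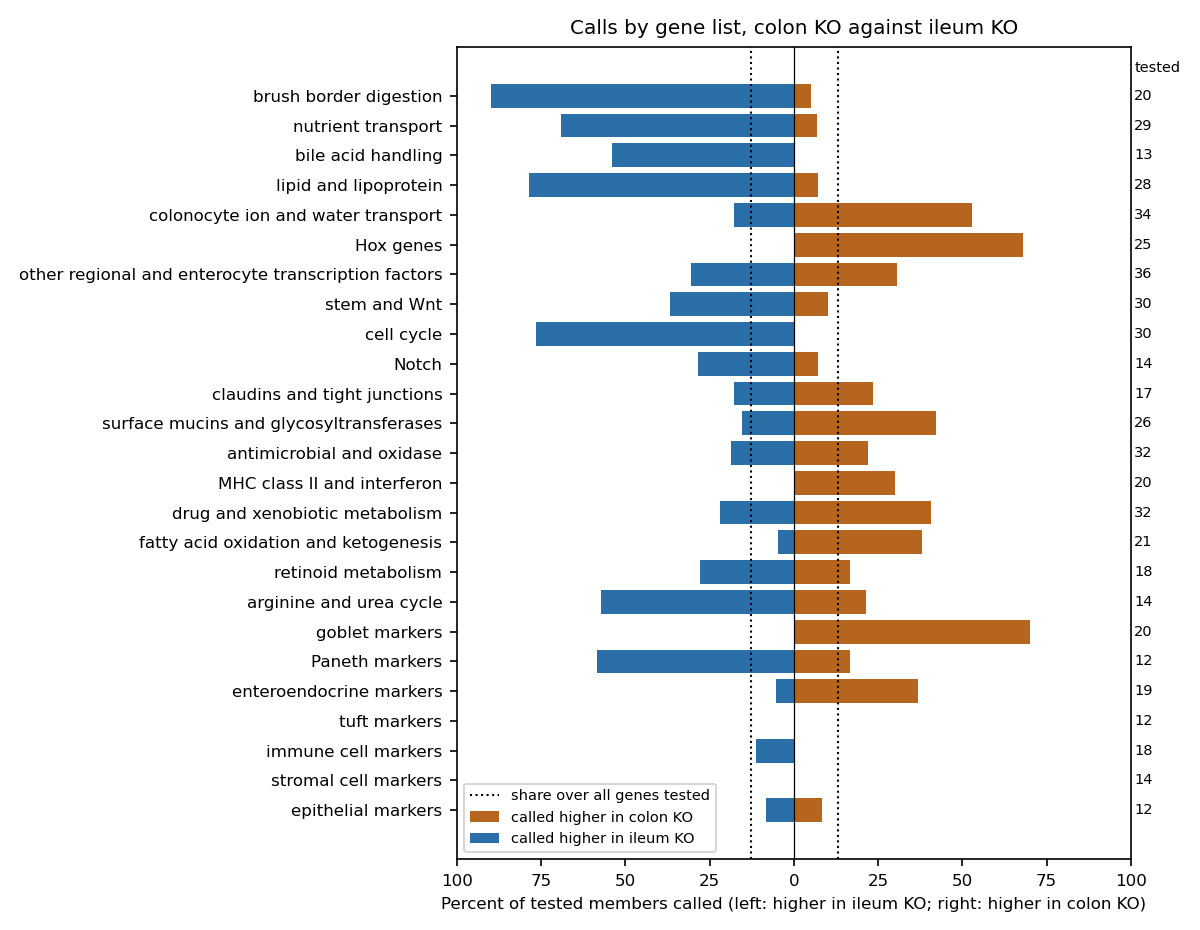
Horizontal bars give the percent of tested members of each gene list called higher in ileum KO (left) or colon KO (right), with the number tested at the right edge and dotted lines at the shares over all genes tested (12.6% and 13.1%). Bars for digestion, nutrient transport, lipid handling and cell cycle point mainly to ileum, and those for Hox genes, colonocyte ion transport and goblet markers mainly to colon.

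Digestive enzymes of the brush border were far more abundant in ileum KO. Of 24 members, 20 were tested, of which 18 were called higher in ileum and 1 in colon, where the backgrounds are 12.6% and 13.1%, and the median log2 difference was -5.19 against -0.02 over all genes. Sucrase-isomaltase (Sis), which splits sucrose and starch products, reached 3748 and 3053 CPM in ileum KO and 3.35 and 4.26 in colon KO. The 2 colon libraries lay together near the bottom of the range and the 2 ileum libraries near the top, a 889.9-fold difference (log2 difference -9.80 ± 0.60, adjusted p = 0.000149). Aminopeptidase N (Anpep), which trims peptides at the cell surface, was the most abundant of the enzymes, with 7909 and 7278 CPM in ileum KO and 5.77 and 6.71 in colon KO (log2 difference -10.25 ± 0.89, adjusted p = 0.000724).

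Other enzymes covered peptide, lipid and sugar substrates. The alkaline sphingomyelinase Enpp7 gave 214 and 132 CPM in ileum KO and 0.093 and 0 in colon KO, which is 1 count in all for colon, a ratio of 3753-fold (95% counting interval 673 to 148260.0). Aminopeptidase A (Enpep) stood at 2463 and 2683 CPM in ileum KO and 9.02 and 12.8 in colon KO, which is 236-fold higher (adjusted p = 0.00261). The tissues' libraries did not overlap for these enzymes, which was a condition of choice for the genes with the largest change. Maltase-glucoamylase (Mgam) showed a smaller difference, with 677 and 460.1 CPM in ileum KO and 115 and 120.0 in colon KO (4.84-fold; log2 difference -2.27 ± 0.21, adjusted p = 0.000528). Meprin alpha (Mep1a) did not pass, at 478 and 655 CPM in ileum KO and 221 and 372 in colon KO (95% interval of the log2 difference -1.87 to 0.01). The member called higher in colon was the ectonucleotidase Nt5e, at 86.2 and 91.5 CPM in colon KO and 28.2 and 10.1 in ileum KO (log2 difference 2.22 ± 0.47, adjusted p = 0.0174). Its adjusted p was 0.0662 without colon KO 1 and 0.085 without colon KO 2.

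Transporters of sugars, amino acids and vitamins followed the enzymes in direction. Of 30 members 29 were tested, 20 of which were called higher in ileum and 2 in colon (median log2 difference -2.78). Slc6a19, the main neutral amino acid transporter of the brush border, reached 954 and 1033 CPM in ileum KO and 1.4 and 1.27 in colon KO (739-fold; log2 difference -9.53 ± 0.38, adjusted p = 2.27e-05). The sodium-glucose transporter Slc5a1 was well expressed in both tissues, at 1882 and 1661 CPM in ileum KO and 307 and 308 in colon KO, and the difference was 5.76-fold (log2 difference -2.53 ± 0.16, adjusted p = 0.000109). The peptide transporter Slc15a1 stood at 443 and 401 CPM in ileum KO and 84.1 and 114 in colon KO (4.25-fold; adjusted p = 0.000311). The sulfate transporter Slc13a1 stood at 464 and 447 CPM in ileum KO and 16.6 and 22.2 in colon KO (23.4-fold; adjusted p = 0.000217). Both were therefore detectable in colon KO at a fraction of the ileal level.

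The members called higher in colon were Trpv6 and Slc36a1. Trpv6, the apical calcium channel, gave 10.8 and 20.3 CPM in colon KO and 0 and 0 in ileum KO. It was at least 103-fold higher in colon, taking 3 counts in all for ileum as the limit that a count of 0 allows (adjusted p = 0.00436). The proton-coupled amino acid carrier Slc36a1 stood at 251 and 194 CPM in colon KO and 66.1 and 42.1 in ileum KO (4.12-fold; adjusted p = 0.00118). The iron carrier Slc11a2 stood at 64.4 and 60.7 CPM in colon KO and 66.2 and 70.0 in ileum KO, with a 95% interval of the log2 difference of -0.39 to 0.15, inside 2-fold. The iron exporter Slc40a1 had every colon library higher, at 206 and 221 CPM in colon KO and 61.5 and 34.2 in ileum KO, and did not pass the test (log2 difference 2.16 ± 0.64, adjusted p = 0.056).

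Genes for fat absorption and lipoprotein export formed the third ileal block. All 28 members were tested, and 22 were called higher in ileum and 2 in colon (median log2 difference -3.33). Apolipoprotein A-I (Apoa1), a lipoprotein coat protein, stood at 2667 and 3020.0 CPM in ileum KO and 2.14 and 1.45 in colon KO (1574-fold; log2 difference -10.62 ± 0.73, adjusted p = 0.000263). Microsomal triglyceride transfer protein (Mttp), which loads lipid onto apolipoprotein B, stood at 1323 and 1036 CPM in ileum KO and 2.98 and 3.63 in colon KO (356-fold; log2 difference -8.47 ± 0.59, adjusted p = 0.00027). Its partner Apob was 28.5-fold higher in ileum, from a colon level that was not negligible: 3046 and 2906 CPM in ileum KO and 103 and 106 in colon KO (adjusted p = 0.000354).

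Cholesterol uptake and efflux genes showed the same order of libraries. Npc1l1, the cholesterol importer of the brush border, reached 813 and 898 CPM in ileum KO and 0.465 and 0.635 in colon KO (1519-fold; log2 difference -10.57 ± 0.90, adjusted p = 0.000731). The sterol efflux gene Abcg8 gave 117 and 142 CPM in ileum KO and 3.72 and 3.63 in colon KO (35.2-fold; adjusted p = 0.00337). For the re-esterifying enzymes, Mogat2 stood at 208 and 207 CPM in ileum KO and 2.79 and 3.08 in colon KO (70.2-fold; adjusted p = 5.37e-06). Dgat1 stood at 504 and 536 CPM in ileum KO and 52.2 and 55.0 in colon KO (9.7-fold; adjusted p = 0.00011). Diglyceride acyltransferase 2 (Dgat2) did not pass, at 138 and 134 CPM in ileum KO and 80.3 and 85.5 in colon KO (log2 difference -0.71 ± 0.24, adjusted p = 0.0746).

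Of the fatty acid binding proteins, small cytosolic lipid carriers, Fabp2 was abundant in both tissues, with 2416 and 2278 CPM in ileum KO and 247 and 326 in colon KO (8.19-fold; log2 difference -3.03 ± 0.32, adjusted p = 0.00106). Fabp1 was scarce, at 4.11 and 3.48 CPM in ileum KO and 0 and 0 in colon KO, and was not called (adjusted p = 0.124), with an adjusted p of 0.00108 to 0.303 when 1 library was left out and, among these, under 0.05 only without 1 of the ileum WT libraries. The lipid droplet coat gene Plin2 ran the other way, at 111 and 133 CPM in colon KO and 55.6 and 57.4 in ileum KO (2.16-fold; adjusted p = 0.00123). The lipoprotein receptor Scarb1 was also higher there, at 24.7 and 25.04 CPM in colon KO and 2.36 and 4.27 in ileum KO (7.47-fold; adjusted p = 0.000968).

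Bile acid recovery was represented from uptake to hormone. Of 16 members 13 were tested, and edgeR called 7 higher in ileum and 0 in colon (8 and 1 at an unadjusted p under 0.05; median log2 difference -2.16). The ileum count was 4 without colon KO 1 or without colon KO 2. Fabp6, the cytosolic bile acid carrier of ileal cells, stood at 2485 and 3199.6 CPM in ileum KO and 18.3 and 35.8 in colon KO (105-fold; log2 difference -6.71 ± 0.75, adjusted p = 0.0018). The apical importer Slc10a2 stood at 449 and 333 CPM in ileum KO and 19.1 and 30.7 in colon KO (15.7-fold; log2 difference -3.97 ± 0.69, adjusted p = 0.0101). Its adjusted p was 0.068 without colon KO 1 and 0.0581 without colon KO 2. Of the paired subunits of the basolateral exporter, Slc51a stood at 830.4 and 888 CPM in ileum KO and 33.5 and 37.5 in colon KO (adjusted p = 0.0063; 0.0518 without colon KO 1 and 0.0568 without colon KO 2). Slc51b stood at 201 and 196 CPM in ileum KO and 44.1 and 39.7 in colon KO (4.72-fold; adjusted p = 0.00158).

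Fgf15, the hormone that reports bile acid uptake to the liver, was counted in ileum only, at 14.7 and 42.5 CPM in ileum KO and 0 and 0 in colon KO. It was at least 209-fold higher there (adjusted p = 0.00997), but not called with either ileum WT library left out (0.0708 for replicate 1, 0.0575 for replicate 2). Its inducer, the bile acid receptor Nr1h4, was measured in both tissues at 211 and 222 CPM in ileum KO and 124 and 128 in colon KO and was not called (log2 difference -0.78 ± 0.39, adjusted p = 0.202). Abcc2, an export pump for conjugates, stood at 169.9 and 293 CPM in ileum KO and 1.21 and 2.00 in colon KO (143-fold; adjusted p = 8.05e-05). Its relative Abcc3 had the opposite order of libraries without passing, at 566 and 591 CPM in colon KO and 231 and 275 in ileum KO (log2 difference 1.19 ± 0.44, adjusted p = 0.0981). Abcc3 was called higher in colon with DESeq2, in the fit of only the 4 KO libraries and with a replicate block within genotype.

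**Figure D2:**
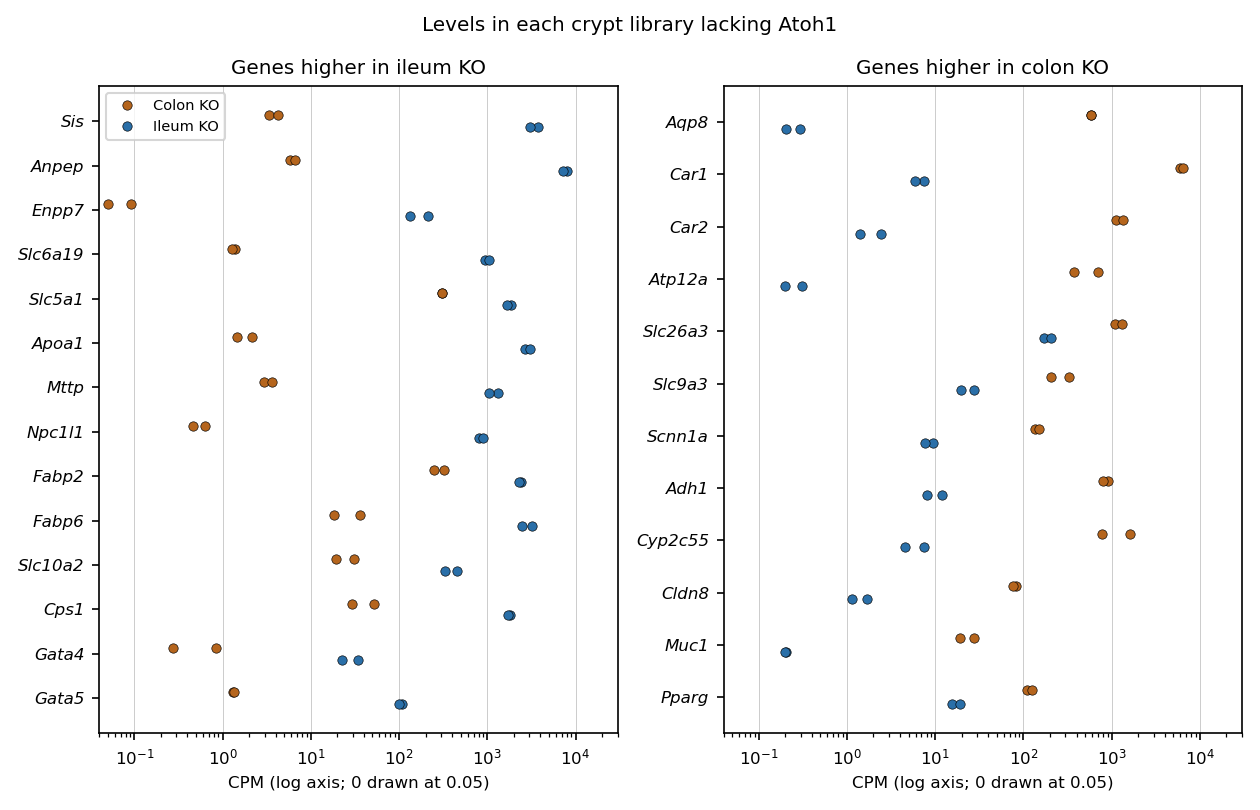
Dots give the CPM (log axis, 0 drawn at 0.05) of each of the 2 colon KO and 2 ileum KO libraries for 26 named genes, 14 higher in ileum on the left and 12 higher in colon on the right. All genes shown were among those called, and the colon and ileum libraries lie apart, by 1574-fold for Apoa1 and 2192-fold for Aqp8.

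Promoter letters were read because GATA, CDX and HNF factors are known regulators of enterocyte genes and their own RNA was measured here. RefSeq sequences (GRCm38.p6) of the 250 bases before the start were available for 10238 tested genes, and both strands were searched for letters known from each factor family. For the GATA family the letters searched were AGATAA, whereas for the CDX family they were TTTATG. Those of HNF4 were CAAAGTCCA, and HNF1 was searched by the start and centre of its palindrome. Of the 15 genes with the largest fold change per direction, 12 of the ileum genes had 1 promoter entry and 5 of these held a match. Of the colon genes, 8 had 1 entry and 0 held a match. Genes of 1 chromosome were left out of these counts. The share of all promoters with a match of any of the 4 families was not counted, so these counts have no background. The 4 ileum promoters printed here were taken by number of matches and then by fold change, so after their matches were seen. They are written 5′ to 3′ with the matching letters in capitals.
Bcl2l15 (chr3:103832446-103832695, plus strand): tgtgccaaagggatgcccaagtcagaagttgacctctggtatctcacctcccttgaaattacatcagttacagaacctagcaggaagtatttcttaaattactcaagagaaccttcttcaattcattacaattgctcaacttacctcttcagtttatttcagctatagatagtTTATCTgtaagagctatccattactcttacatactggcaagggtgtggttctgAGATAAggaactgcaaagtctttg
Enpp7 (chr11:118987931-118988180, plus strand): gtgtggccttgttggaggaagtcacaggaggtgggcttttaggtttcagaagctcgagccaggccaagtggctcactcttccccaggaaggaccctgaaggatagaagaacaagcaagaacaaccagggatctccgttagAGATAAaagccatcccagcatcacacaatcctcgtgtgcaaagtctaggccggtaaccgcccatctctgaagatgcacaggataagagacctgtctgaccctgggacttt
Npc1l1 (chr11:6230246-6230495, minus strand): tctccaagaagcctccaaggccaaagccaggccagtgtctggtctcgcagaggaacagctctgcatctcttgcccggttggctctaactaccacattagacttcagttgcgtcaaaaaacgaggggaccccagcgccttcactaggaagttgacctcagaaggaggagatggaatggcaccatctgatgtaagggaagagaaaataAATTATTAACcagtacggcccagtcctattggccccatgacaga
Sis (chr3:72967864-72968113, minus strand): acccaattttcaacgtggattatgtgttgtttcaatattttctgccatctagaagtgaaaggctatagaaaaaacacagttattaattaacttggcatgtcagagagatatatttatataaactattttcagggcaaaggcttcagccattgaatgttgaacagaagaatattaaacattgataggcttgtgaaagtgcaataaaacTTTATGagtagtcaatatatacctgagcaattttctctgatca

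The capitals mark a pair of GATA matches in Bcl2l15, a GATA match in Enpp7, an HNF1 match in Npc1l1 and a CDX match 43 bases before the start of Sis. GATA letters were found in 7.37% of all 10238 promoters, in 16.3% of the 153 of genes called over 8-fold higher in ileum, and in 9.38% of the 288 of genes called over 8-fold higher in colon. CDX letters were found in 7.65%, 12.4% and 13.2% in the same order. HNF4 letters were found in 0.498%, 2.61% and 1.04%, and HNF1 letters in 0.342%, 2.61% and 0.347%, which for the ileum set is 4 promoters each. Base composition and core letters also differed: the median GC content was 59.6%, 53.2% and 54.8%, and the TATA box letters TATAAA were found in 8.33%, 20.9% and 16.7%. The part of base composition in these shares was not tested, and a match is a description of letters only.

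Colonocyte genes for salt and water transport formed the counterpart in colon KO. All 34 members were tested, of which 18 were called higher in colon and 6 in ileum (median log2 difference 1.35). The water channel Aqp8 stood at 577 and 584 CPM in colon KO and 0.206 and 0.298 in ileum KO, which is 2192-fold higher (log2 difference 11.10 ± 0.46, adjusted p = 2.67e-05). Carbonic anhydrase 1 (Car1), which supplies bicarbonate and protons for exchange, was among the most abundant regional genes, at 5967 and 6375 CPM in colon KO and 7.4 and 5.86 in ileum KO (929.5-fold; log2 difference 9.86 ± 1.16, adjusted p = 0.00235). Its relative Car2 stood at 1123 and 1332 CPM in colon KO and 2.47 and 1.39 in ileum KO (634-fold; log2 difference 9.31 ± 0.33, adjusted p = 1.1e-05). In all of them the ileum libraries were at or below 7.40 CPM, far under the colon libraries.

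Among exchangers and channels of the apical membrane, some were measured in both tissues and others almost only in colon. The chloride-bicarbonate exchanger Slc26a3 stood at 1099 and 1313 CPM in colon KO and 171 and 203 in ileum KO (6.45-fold; adjusted p = 0.000257). The sodium-proton exchanger Slc9a3 stood at 204 and 331 CPM in colon KO and 27.3 and 19.6 in ileum KO (11.4-fold; adjusted p = 0.000993). The colonic proton-potassium pump Atp12a stood at 695 and 376 CPM in colon KO and 0.308 and 0.199 in ileum KO (2023-fold; adjusted p = 4.64e-05). Of the epithelial sodium channel, the alpha subunit Scnn1a stood at 136 and 152 CPM in colon KO and 9.35 and 7.65 in ileum KO (16.9-fold; adjusted p = 0.000257). The beta and gamma subunits were much scarcer: Scnn1b gave 2.42 and 2.81 CPM in colon KO and 0 and 0.0993 in ileum KO, and Scnn1g 2.88 and 4.26 CPM in colon KO and 0.103 and 0.199 in ileum KO. All 3 subunits were called higher in colon.

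The mineralocorticoid receptor Nr3c2 stood at 167 and 177 CPM in colon KO and 84.8 and 69.3 in ileum KO (2.23-fold; adjusted p = 0.00444). Hsd11b2, the enzyme that shields this receptor from glucocorticoids, stood at 251 and 254 CPM in colon KO and 39.9 and 49.1 in ileum KO (5.68-fold; adjusted p = 0.00349). Sgk1, a kinase induced by aldosterone, was not called, at 161 and 239 CPM in colon KO and 128 and 149 in ileum KO (log2 difference 0.53 ± 0.31, adjusted p = 0.262). The lactate and butyrate carrier Slc16a1 stood at 542 and 594 CPM in colon KO and 204 and 176 in ileum KO (2.99-fold; adjusted p = 0.00369). Slc5a8, a sodium-coupled carrier of the same substrates, had the same order of libraries without passing (533 and 713 CPM in colon KO and 241 and 219.6 in ileum KO; log2 difference 1.43 ± 0.48, adjusted p = 0.0732). Slc5a8 was called higher in colon with DESeq2 and in the fit of only the 4 KO libraries.

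Several transport genes ran the other way or were level. Slc26a6, an anion exchanger of the small intestine, stood at 198 and 171 CPM in ileum KO and 1.49 and 1.91 in colon KO (108-fold; log2 difference -6.75 ± 0.19, adjusted p = 3.42e-06). Uroguanylin (Guca2b) stood at 109 and 127 CPM in ileum KO and 8.65 and 8.17 in colon KO (14.1-fold; adjusted p = 0.000257). Its receptor Gucy2c was level at 494 and 539 CPM in ileum KO and 461 and 517 in colon KO (95% interval of the log2 difference -0.45 to 0.29). The sodium pump subunit Atp1b1 and the basolateral chloride loader Slc12a2 had intervals of -0.24 to 0.41 and -0.48 to 0.40, both inside 2-fold.

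Energy and detoxification genes also divided by region. Of 22 genes of fatty acid oxidation and ketogenesis 21 were tested, and 8 were called higher in colon and 1 in ileum (median 0.35). The colon count was 3 without colon KO 2 or ileum KO 1, 4 without ileum KO 2 and 5 without colon KO 1. Short-chain acyl-CoA dehydrogenase (Acads), which oxidises butyrate-sized substrates, stood at 303 and 379 CPM in colon KO and 119 and 139.5 in ileum KO (2.63-fold; adjusted p = 0.00157). Hadha, of long-chain oxidation, was not called, at 392 and 415 CPM in colon KO and 327 and 333 in ileum KO (95% interval of the log2 difference 0.02 to 0.56).

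Of 34 genes for handling drugs and foreign compounds 32 were tested, and 13 were called higher in colon and 7 in ileum (median 0.42). The colon count was 7 without colon KO 2, 8 without ileum KO 1, 9 without ileum KO 2 and 11 without colon KO 1, and the ileum count was 3 without any 1 KO library. The cytochrome P450 gene Cyp2c55 stood at 785 and 1622 CPM in colon KO and 4.52 and 7.55 in ileum KO (199-fold; adjusted p = 0.00103). The phenol sulfotransferase Sult1a1 stood at 164 and 168 CPM in colon KO and 0.617 and 1.19 in ileum KO (180.2-fold; adjusted p = 1.04e-05). Cyp2c genes are near copies of each other, so reads may be split among them. The glutathione transferase Gstm1 stood at 199 and 227 CPM in colon KO and 16.2 and 27.6 in ileum KO (9.69-fold; adjusted p = 0.000257). Cyp4f14 ran the other way, at 991 and 884 CPM in ileum KO and 190.4 and 211 in colon KO (4.67-fold; adjusted p = 0.000467).

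Of 22 genes of retinoid metabolism 18 were tested, and 3 were called higher in colon and 5 in ileum (median 0.48). This was 44.4% called, against 25.7% of all genes. The ileum count was 0 without colon KO 1, 1 without colon KO 2 or ileum KO 1, and 3 without ileum KO 2. Dehydrogenases that oxidise retinol or related alcohols were called in both directions. The alcohol dehydrogenase Adh1 stood at 910.4 and 802 CPM in colon KO and 11.9 and 8.04 in ileum KO (85.7-fold; adjusted p = 0.000398). Dhrs9 stood at 51.8 and 36.2 CPM in colon KO and 2.67 and 0.894 in ileum KO (24.7-fold; adjusted p = 0.000548). Rdh16 stood at 41.5 and 40.2 CPM in colon KO and 4.83 and 1.99 in ileum KO (12.0-fold; adjusted p = 0.000824). The retinol dehydrogenase Rdh7, which was scarce, stood at 1.64 and 1.49 CPM in ileum KO and 0 and 0.0907 in colon KO (adjusted p = 0.00997; 0.0655 without colon KO 1 and 0.0546 without ileum KO 1). The retinol carrier Rbp2 was called higher in ileum, at 257 and 152 CPM in ileum KO and 14.7 and 13.6 in colon KO (adjusted p = 0.0146). That p was 0.08 without colon KO 1, 0.097 without colon KO 2 and 0.0613 without ileum KO 1.

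The arginine and urea cycle list had 8 of 14 members called higher in ileum and 3 in colon (median -1.33). The ileum count was 7 or 8 without 1 KO library, and the colon count was 1 without ileum KO 1 or ileum KO 2. Cps1, which makes carbamoyl phosphate in mitochondria, stood at 1803 and 1704 CPM in ileum KO and 51.5 and 29.5 in colon KO (43.3-fold; log2 difference -5.44 ± 0.47, adjusted p = 0.000558). Otc, the next enzyme, stood at 162 and 143 CPM in ileum KO and 14.8 and 17.2 in colon KO (9.53-fold; adjusted p = 8.05e-05). Oat, which links ornithine to glutamate and proline, stood at 671 and 628 CPM in ileum KO and 117 and 139 in colon KO (5.08-fold; adjusted p = 6.05e-05). Glutamine synthetase (Glul), which makes glutamine from glutamate, was higher in colon, at 503 and 687 CPM in colon KO and 51.7 and 62.9 in ileum KO (10.4-fold; log2 difference 3.38 ± 0.24, adjusted p = 0.000164).

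Hox genes, the homeobox factors that mark position along the body axis, were called in 1 direction. Of 38 genes in the annotation 25 were tested, and edgeR called 17 higher in colon and 0 in ileum (20 and 0 at an unadjusted p under 0.05, and 16 and 0 called by DESeq2). The median log2 difference was 5.37, or 3.83 with the 8 genes without a count in ileum KO placed at their bound. Those 8 genes passed the filter on low counts through other libraries, so they could be called higher in colon or not at all. The colon count was 12 to 14 without 1 KO library. Hoxb13, the most posterior gene of its cluster, stood at 289 and 256 CPM in colon KO and 0.103 and 0.0993 in ileum KO, 2 counts in all for ileum KO, a ratio of 2692-fold (95% counting interval 745 to 22235). Hoxa13 stood at 48.0 and 63.5 CPM in colon KO and 0 and 0 in ileum KO and was at least 369-fold higher in colon (adjusted p = 0.000347). Hoxd13 stood at 62.9 and 66.9 CPM in colon KO and 0.206 and 0 in ileum KO, with a ratio of 643-fold (95% counting interval 178 to 5311).

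The clusters differed in how far toward the front the division reached. In the A cluster 9 of 10 tested members were called, from Hoxa2 to Hoxa13, Hoxa4 being the exception. Leaving out ileum KO 1 gave an adjusted p of 0.0597 for Hoxa3 and 0.0518 for Hoxa5, and for Hoxa3 it was 0.0609 when ileum KO 2 was left out. Hoxa9 gave 47.5 and 44.6 CPM in colon KO and 0 and 0 in ileum KO, and Hoxa10 49.6 and 53.4 CPM in colon KO and 0.103 and 0 in ileum KO. In the D cluster 6 of 7 tested members were called, from Hoxd8 to Hoxd13. For Hoxd8 the adjusted p of 0.0329 became 0.0717 without colon KO 1, 0.0701 without colon WT 1, 0.066 without colon WT 2, 0.169 without colon KO 2, 0.0642 without ileum KO 1 and 0.157 without ileum KO 2. For Hoxd9 (adjusted p = 0.02) it became 0.0999 without colon KO 1, 0.0518 without colon WT 1, 0.0958 without colon KO 2, 0.0808 without ileum KO 1 and 0.0822 without ileum KO 2. Hoxd12 (adjusted p = 0.0106) was at 0.0654 without colon KO 2. In the B cluster those called were Hoxb9 and Hoxb13. Hoxb9 was expressed in both tissues at 93.9 and 83.4 CPM in colon KO and 42.6 and 47.3 in ileum KO (1.97-fold; adjusted p = 0.0181), and its adjusted p was 0.093 without colon KO 1, 0.0667 without colon KO 2, 0.109 without ileum KO 1 and 0.0762 without ileum KO 2. Hoxb7, nearer the front of the cluster, was level within its error, at 13.1 and 10.3 CPM in colon KO and 9.35 and 11.8 in ileum KO (95% interval of the log2 difference -0.54 to 0.83), and Hoxb8 likewise (-0.67 to 0.96). None of the 9 genes of the C cluster in the annotation passed the filter on low counts, and each had at most 0.308 CPM in any KO library. Hottip, a long non-coding RNA at the end of the A cluster, gave 24.9 and 34.5 CPM in colon KO and 0 and 0 in ileum KO (at least 196-fold higher; adjusted p = 0.000925). Hoxa11os, which is antisense to Hoxa11, gave 81.7 and 88.7 CPM in colon KO and 0 and 0 in ileum KO; whether counting used strand is not given in the sources used here, so its reads and those of Hoxa11 may be mixed.

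**Figure D3:**
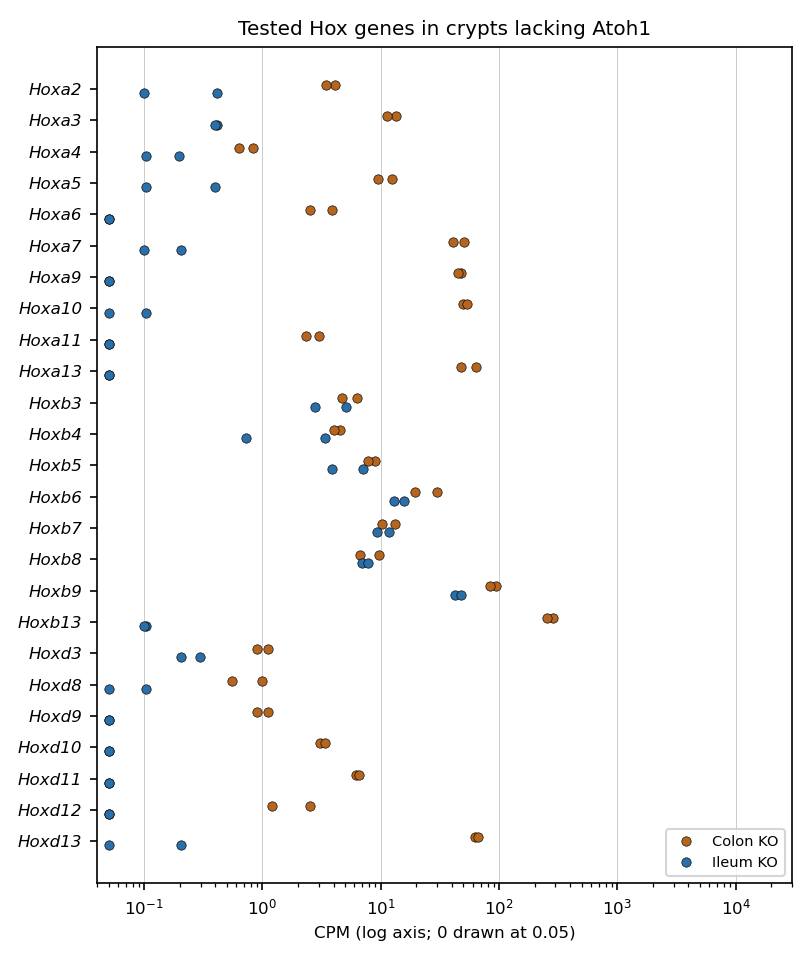
Dots give the CPM (log axis, 0 drawn at 0.05) of the 25 tested Hox genes in each colon KO and ileum KO library, ordered within each cluster from front to back. Colon libraries lie to the right for the A and D clusters and for Hoxb13, and the sets lie close together or overlap from Hoxb3 to Hoxb8.

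The other transcription factors of the region and of enterocytes split evenly. Of 37 members 36 were tested, and 11 were called in each direction (median -0.17), with 7 in ileum without colon KO 1. The zinc finger factor Gata5 stood at 109 and 100.7 CPM in ileum KO and 1.3 and 1.36 in colon KO (77.8-fold; log2 difference -6.28 ± 0.13, adjusted p = 3.02e-06). Its relative Gata4 stood at 33.9 and 22.4 CPM in ileum KO and 0.837 and 0.272 in colon KO (49.9-fold; adjusted p = 0.00418). Gata6, the third of the family, was expressed in both tissues at 116 and 119.6 CPM in ileum KO and 65.6 and 73.6 in colon KO (1.7-fold; adjusted p = 0.00824), and its adjusted p was 0.0665 without colon KO 1 and 0.0528 without ileum KO 2. The basic leucine zipper factor Maf stood at 252 and 218 CPM in ileum KO and 5.12 and 9.16 in colon KO (32.8-fold; adjusted p = 0.0012). Hnf4g, a nuclear receptor of enterocytes, stood at 249 and 218 CPM in ileum KO and 46.8 and 47.3 in colon KO (4.97-fold; adjusted p = 2.64e-05).

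Other factors were higher in colon KO. The lipid-sensing receptor Pparg stood at 111 and 127 CPM in colon KO and 15.5 and 19.2 in ileum KO (6.85-fold; adjusted p = 0.000216). Tfcp2l1 stood at 593 and 680.2 CPM in colon KO and 129 and 113 in ileum KO (5.25-fold; adjusted p = 7.19e-05). Klf4, a factor of differentiated cells, stood at 548 and 665 CPM in colon KO and 185 and 183 in ileum KO (3.29-fold; adjusted p = 0.000261). Cdx2, the master factor of intestinal identity, was level at 312 and 346 CPM in colon KO and 300.4 and 299.8 in ileum KO (95% interval of the log2 difference -0.16 to 0.43). Hnf4a was not called, at 1674 and 1450.3 CPM in ileum KO and 1248 and 1196 in colon KO (-0.68 to -0.02).

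Genes of stem cells and Wnt signalling were more often higher in ileum KO. Of 33 members 30 were tested, and 11 were called higher in ileum and 3 in colon (median -0.20), and 8 to 10 in ileum without 1 KO library. Olfm4, a secreted marker of small intestinal stem cells, stood at 909 and 290.1 CPM in ileum KO and 5.4 and 2.81 in colon KO (146-fold; log2 difference -7.19 ± 0.89, adjusted p = 0.00279). The Wnt receptor partner Lgr5, which marks crypt base stem cells in both tissues, stood at 46.3 and 62.0 CPM in ileum KO and 16.8 and 18.7 in colon KO (3.04-fold; log2 difference -1.61 ± 0.23, adjusted p = 0.0031). Smoc2, also of the Lgr5 signature, stood at 178 and 196 CPM in ileum KO and 77.1 and 72.9 in colon KO (2.49-fold; adjusted p = 0.000171). The Wnt feedback gene Axin2 stood at 119 and 105 CPM in ileum KO and 48.5 and 36.9 in colon KO (2.62-fold; adjusted p = 0.00499).

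Other members of this list were level or higher in colon. The R-spondin receptor Lgr4 was level at 346 and 327 CPM in ileum KO and 317 and 349 in colon KO (95% interval of the log2 difference -0.29 to 0.26), as was the sorting receptor Ephb2 (-0.47 to 0.11). Ephb6 stood at 19.8 and 17.7 CPM in colon KO and 0.411 and 0.298 in ileum KO (51.3-fold; log2 difference 5.68 ± 0.39, adjusted p = 0.000148). The colon count fell from 3 to 1 without colon KO 2 or ileum KO 2.

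Cell cycle genes were higher in ileum KO by small amounts. All 30 members were tested, and edgeR called 23 higher in ileum and 0 in colon (25 and 0 at an unadjusted p under 0.05; median -0.75), and 19 to 21 without 1 KO library. Only 1 was called when a difference over 2-fold was required. Ccnd1, the cyclin of G1, stood at 522 and 435 CPM in ileum KO and 142 and 133 in colon KO (3.48-fold; log2 difference -1.80 ± 0.18, adjusted p = 0.000775). Top2a, a topoisomerase of dividing cells, stood at 579 and 561 CPM in ileum KO and 299 and 262 in colon KO (2.03-fold; adjusted p = 0.000904). Mki67, the proliferation marker, stood at 555 and 598 CPM in ileum KO and 364 and 347 in colon KO (1.62-fold; adjusted p = 0.0035). The related cyclin Ccnd2 was level at 92.7 and 99.6 CPM in ileum KO and 100.02 and 96.9 in colon KO (-0.27 to 0.34).

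Of 15 Notch genes 14 were tested, and 4 were called higher in ileum and 1 in colon. This was 35.7% called, against 25.7% of all genes. The ileum count was 1 or 2 without any 1 KO library or colon WT library, and the colon count ranged from 0 to 2. Receptor Notch2 stood at 20.6 and 26.1 CPM in ileum KO and 9.3 and 9.44 in colon KO (2.49-fold; adjusted p = 0.00594). Notch1 was not called (74.9 and 90.2 CPM in ileum KO and 70.3 and 72.0 in colon KO; log2 difference -0.21 ± 0.24, adjusted p = 0.571). Nrarp, a feedback target of the pathway, differed by replicate number rather than by tissue, at 24.1 and 92.6 CPM in colon KO and 18.9 and 111 in ileum KO, and was not called (adjusted p = 0.923).

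Junction genes were called in both directions. Of 22 members 17 were tested, and 4 were called higher in colon and 3 in ileum. This was 41.2% called, against 25.7% of all genes. Intervals lay inside 2-fold for 9 uncalled members of 17, and for 6767 uncalled genes of 14415. The barrier claudin Cldn8 stood at 81.9 and 76.2 CPM in colon KO and 1.13 and 1.69 in ileum KO (55.5-fold; log2 difference 5.79 ± 0.28, adjusted p = 3.28e-05). The pore-forming Cldn15 stood at 512 and 498 CPM in ileum KO and 182 and 192 in colon KO (2.7-fold; log2 difference -1.44 ± 0.16, adjusted p = 0.00108). The scaffold Tjp3 was level at 386 and 375 CPM in colon KO and 368 and 378 in ileum KO (-0.28 to 0.34). The colon count was 2 without any 1 KO library.

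Of 26 surface mucins and glycosyltransferases, all tested, 11 were called higher in colon and 4 in ileum (median 0.95). The colon count was 5 without ileum KO 2, 6 without colon KO 2, 7 without ileum KO 1 and 8 without colon KO 1. The transmembrane mucin Muc1 stood at 27.7 and 19.2 CPM in colon KO and 0.206 and 0.199 in ileum KO (109.6-fold; adjusted p = 0.000355). Fut2, the fucosyltransferase of gut surface glycans, stood at 225 and 226 CPM in colon KO and 33.0 and 30.9 in ileum KO (7.05-fold; adjusted p = 0.000116). The sialyltransferase St3gal4 ran the other way, at 1526 and 1225 CPM in ileum KO and 316 and 280.5 in colon KO (4.61-fold; adjusted p = 0.000371). Muc13, a membrane mucin of both tissues, was not called (3041 and 2862 CPM in colon KO and 3146 and 2973 in ileum KO; log2 difference -0.05 ± 0.47, adjusted p = 0.952).

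Antimicrobial and oxidase genes were called 7 times in colon and 6 in ileum among 32 tested of 34 members (median 1.29). This was 40.6% called, against 25.7% of all genes. The counts were 3 and 4 without colon KO 1 or ileum KO 2, 3 and 3 without colon KO 2, and 5 and 3 without ileum KO 1 or either colon WT library. They were 17 and 7 without ileum WT 1 and 16 and 6 without ileum WT 2. The lectin Reg3g, which kills Gram-positive bacteria, stood at 10976 and 8891 CPM in ileum KO and 868 and 314 in colon KO (16.8-fold; log2 difference -4.07 ± 0.70, adjusted p = 0.00854). Its near relative Reg3b was the most abundant ileal gene named here, at 19037 and 14463 CPM in ileum KO and 3468 and 981 in colon KO (log2 difference -2.91 ± 0.77, adjusted p = 0.0368). The call did not hold in several fits, with adjusted p values of 0.0679 without colon WT 1, 0.066 without colon WT 2, 0.126 without colon KO 2, 0.131 without ileum KO 1, 0.0571 without ileum WT 2 and 0.0964 without ileum KO 2. Lypd8, a coat protein that keeps flagellated bacteria off the colonic surface, was the most abundant colon gene named, at 8826 and 8382 CPM in colon KO and 2601 and 1338 in ileum KO (log2 difference 2.13 ± 0.47, adjusted p = 0.0182). The adjusted p rose to 0.0719 without colon KO 1, 0.0745 without colon KO 2 and 0.0915 without ileum KO 2. The chemokine Ccl25, which draws lymphocytes to the small intestine, stood at 246 and 234 CPM in ileum KO and 2.98 and 2.36 in colon KO (89.6-fold; adjusted p = 3.13e-06).

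Genes of the interferon response and of MHC class II were called at a share near that of all genes. The class II genes H2-Ab1 and Cd74 were not called. All 20 genes of this list were tested, and edgeR called 6 higher in colon and 0 in ileum (8 and 0 at an unadjusted p under 0.05). This was 30% called, against 25.7% of all genes. The median log2 difference taken without its sign was 0.30, against 0.37 over all genes. The colon count was 3 to 5 without 1 KO library (3 without colon KO 2 or ileum KO 1). Oasl2, an antiviral gene, stood at 123 and 153 CPM in colon KO and 36.2 and 35.5 in ileum KO (3.85-fold; adjusted p = 0.000131). Isg15, an interferon-induced modifier, stood at 27.7 and 37.7 CPM in colon KO and 5.65 and 8.44 in ileum KO (4.63-fold; adjusted p = 0.000776). The class II chain H2-Ab1 stood at 676 and 556 CPM in colon KO and 613 and 575 in ileum KO (log2 difference 0.05 ± 0.52). The invariant chain Cd74 stood at 2297 and 1972 CPM in colon KO and 1902 and 1647 in ileum KO (0.27 ± 0.50).

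Markers of the secretory lineage did not fall to the same level in both tissues. Goblet markers, 20 of 20 measured and none at 0 in any KO library, summed to 3612 and 4181 CPM in colon KO and 1141 and 739 CPM in ileum KO. In WT the sums were 15900.0 and 32831 CPM in colon WT and 15740.0 and 29195 CPM in ileum WT. Of the 20, edgeR called 14 higher in colon KO and 0 in ileum KO (18 and 0 at an unadjusted p under 0.05; median log2 difference 2.55). In WT 4 were called higher in colon and 0 in ileum (median 0.56). In sorted GFP cells the order was the other way, with 2 called higher in colon and 8 in ileum (median -0.74). The edgeR test of the difference between KO and WT called 0 of the 20 goblet markers (smallest adjusted p = 0.837). The count was 9 without colon KO 2 or ileum KO 2, 10 without colon KO 1 and 12 without ileum KO 1. Spdef, a goblet transcription factor, stood at 20.7 and 24.9 CPM in colon KO and 2.67 and 1.49 in ileum KO (10.9-fold; adjusted p = 0.00544). The kallikrein Klk1 stood at 145 and 245 CPM in colon KO and 4.73 and 7.25 in ileum KO (32.4-fold; adjusted p = 0.0037). Muc2, the main secreted mucin, stood at 241 and 363 CPM in colon KO and 43.2 and 12.6 in ileum KO (log2 difference 3.44 ± 0.79, adjusted p = 0.0251). Its adjusted p was 0.0619 without colon KO 1, 0.106 without colon KO 2, 0.0705 without ileum WT 1, 0.0728 without ileum WT 2 and 0.0934 without ileum KO 2.

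Paneth markers summed to 310.0 and 54.6 CPM in colon KO and 2840.2 and 1403 CPM in ileum KO. In WT the sums were 197 and 798 CPM in colon WT and 13006 and 44990.0 CPM in ileum WT. In KO, 4 or 5 of the 14 were at 0 in each colon KO library and 2 or 3 in each ileum KO library. Of 12 tested, 7 were called higher in ileum KO and 2 in colon KO, the colon count being 0 without colon KO 2 or ileum KO 2 and 1 without ileum KO 1. Lysozyme 1 (Lyz1), which breaks bacterial walls, stood at 747 and 479.8 CPM in ileum KO and 3.81 and 3.27 in colon KO (173-fold; adjusted p = 0.000889). The lectin Itln1 stood at 1013 and 587 CPM in ileum KO and 1.67 and 2.45 in colon KO (385-fold; adjusted p = 0.00343). The defensin Defa22 stood at 77.8 and 50.7 CPM in ileum KO and 0.186 and 0 in colon KO, and because defensin genes are near-identical, its reads may belong to relatives. Most of the colon KO 1 sum is Pla2g2a, a secreted phospholipase that differed between libraries of 1 tissue, at 275 and 5.44 CPM in colon KO and 607 and 10.03 in ileum KO (not called, adjusted p = 0.808).

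Enteroendocrine markers summed to 183 and 226 CPM in colon KO and 92.1 and 88.6 CPM in ileum KO. Of 19 tested, 7 were called higher in colon KO and 1 in ileum KO. This was 42.1% called, against 25.7% of all genes. Insl5, a hormone of colonic endocrine cells, gave 30.7 and 33.0 CPM in colon KO and 0 and 0 in ileum KO (at least 210.4-fold higher; adjusted p = 4.83e-05). The gut hormone Pyy stood at 30.8 and 33.5 CPM in colon KO and 3.08 and 3.48 in ileum KO (9.76-fold; adjusted p = 0.000572). Tuft markers summed to 28.4 and 43.5 CPM in colon KO and 11.5 and 14.99 CPM in ileum KO. Of 12 tested, edgeR called 0 (0 at an unadjusted p under 0.05), but 5 higher in colon without ileum WT 1 or ileum WT 2. Immune markers summed to 321 and 203 CPM in colon KO and 499.9 and 422 CPM in ileum KO, with 2 of 18 called, both higher in ileum, and 9 higher in ileum without ileum WT 1 or ileum WT 2. The granzyme Gzma stood at 100.2 and 98.9 CPM in ileum KO and 8.65 and 7.17 in colon KO (adjusted p = 0.0303). For this gene the adjusted p was 0.123 without colon KO 1, 0.0649 without colon WT 1, 0.0607 without colon WT 2, 0.156 without colon KO 2, 0.0927 without ileum KO 1 and 0.089 without ileum KO 2. The integrin Itgam stood at 65.4 and 54.8 CPM in ileum KO and 5.3 and 9.07 in colon KO (adjusted p = 0.024). That p was 0.128 without colon KO 1, 0.0992 without colon KO 2, 0.0951 without ileum KO 1 and 0.0761 without ileum KO 2. Stromal markers summed to 125 and 199 CPM in colon KO and 97.1 and 89.6 CPM in ileum KO. Of 14 tested, edgeR called 0 (1 at an unadjusted p under 0.05), but 2 higher in colon without colon KO 1, ileum WT 1 or ileum WT 2. The part of these cells in the regional differences was not tested.

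**Figure D4:**
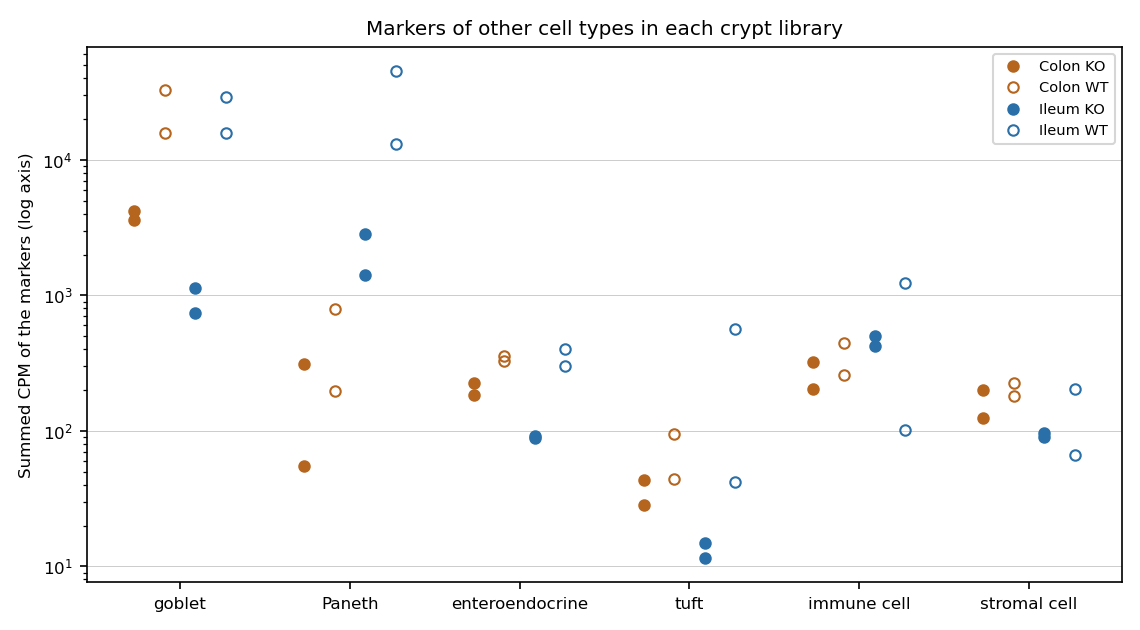
Dots give the summed CPM (log axis) of the markers of 6 other cell types in each crypt library, filled for KO and open for WT. Goblet sums of both tissues are lower in KO than in WT, and colon KO lies above ileum KO for goblet and enteroendocrine markers and below it for Paneth markers.

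The sorted ATOH1-GFP cells gave a measure of these calls that compares no KO library. The KO libraries were part of the fit of all 14 libraries, and so of its filter, scaling and estimate of spread. Of the 1884 genes higher in colon KO than in ileum KO, 418 (22.2%) were higher in colon GFP cells than in colon WT crypts, where 20.1% of all genes were. Of the 1815 genes higher in ileum KO, 237 (13.1%) were higher in ileum GFP cells than in ileum WT crypts, against 22.5% of all genes. RNA quality measures moved with these comparisons: mitochondrial genes took 31.7% to 46.6% of the counts in GFP libraries and 3.42% to 4.76% in crypt libraries, and 24.9% to 52.3% and 9.30% to 13.3% of unique reads fell outside genes. Their part in these shares was not tested. Without the 4029 genes higher in GFP cells than in WT in either tissue, 1220 genes higher in colon KO and 1404 higher in ileum KO were left. The sorted cells themselves differed between colon and ileum for Sis (log2 difference -3.48 ± 0.89, adjusted p = 0.0206) and Hoxb13 (7.47 ± 0.58, adjusted p = 5.4e-06), while Apoa1 was not called (-2.34 ± 1.22, adjusted p = 0.201). Across all genes, 870 colon calls were shared between KO crypts and GFP cells (46.2% of the KO calls and 47.1% of the GFP calls), where 12.6% of genes are called higher in colon GFP cells. For ileum 526 calls were shared (29.0% and 35.4%, with 10.2% called), and 62 and 35 genes were called in opposite directions.

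In littermate crypts the regional genes overlapped widely with those of KO. The 2 comparisons share no library but came from 1 fit, with the same filter, scaling and estimate of spread per gene. The overlap is thus not an independent repeat. In WT, 2872 of 14415 genes (19.9%) were called, 1472 (10.2%) higher in colon and 1400 (9.71%) higher in ileum. Of these, 1255 colon genes were called in both genotypes (66.6% of the KO calls and 85.3% of the WT calls), as were 1177 ileum genes (64.8% and 84.1%), and 2 and 0 were called in opposite directions. Brush border members were called 16 times higher in WT ileum with a median log2 difference of -4.43, and Hox genes 18 times higher in WT colon with a median of 4.14. Cell cycle members were called 22 times higher in WT ileum with a median of -0.66.

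A test of whether the regional difference itself differs between KO and WT called 1 gene of 14415 (0.00694%), and 563 had an unadjusted p under 0.05. That gene was Anxa13, an annexin of the intestinal brush border, which stood at 0.837 and 0.817 CPM in colon KO and 239 and 231 CPM in ileum KO. In WT it stood at 15.6 and 21.1 CPM in colon WT and 147 and 145 CPM in ileum WT. The colon KO libraries were the lowest and the ileum KO libraries the highest of the 8. The regional log2 difference was -8.13 ± 0.21 in KO and -2.98 ± 0.14 in WT, a difference of -5.15 ± 0.25 between them (adjusted p = 0.00179). The count was 0 without colon KO 1 or without colon KO 2, 335 without ileum WT 1, 4 without ileum WT 2, and 52 with DESeq2. Among the genes with the next smallest p, Myof, a membrane repair protein, stood at 100.9 and 97.5 CPM in colon KO and 6.58 and 4.77 CPM in ileum KO. In WT it stood at 71.3 and 93.5 CPM in colon WT and 29.0 and 38.9 CPM in ileum WT, and the test did not pass (difference 2.85 ± 0.30, adjusted p = 0.159). Ano7 and Lrrc26 were level between tissues in WT (log2 difference -0.06 ± 0.19 and 0.07 ± 0.20) and higher in colon KO (2.47 ± 0.28 and 2.79 ± 0.24), without passing the test of the difference (adjusted p = 0.314 and adjusted p = 0.159).

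**Figure D5:**
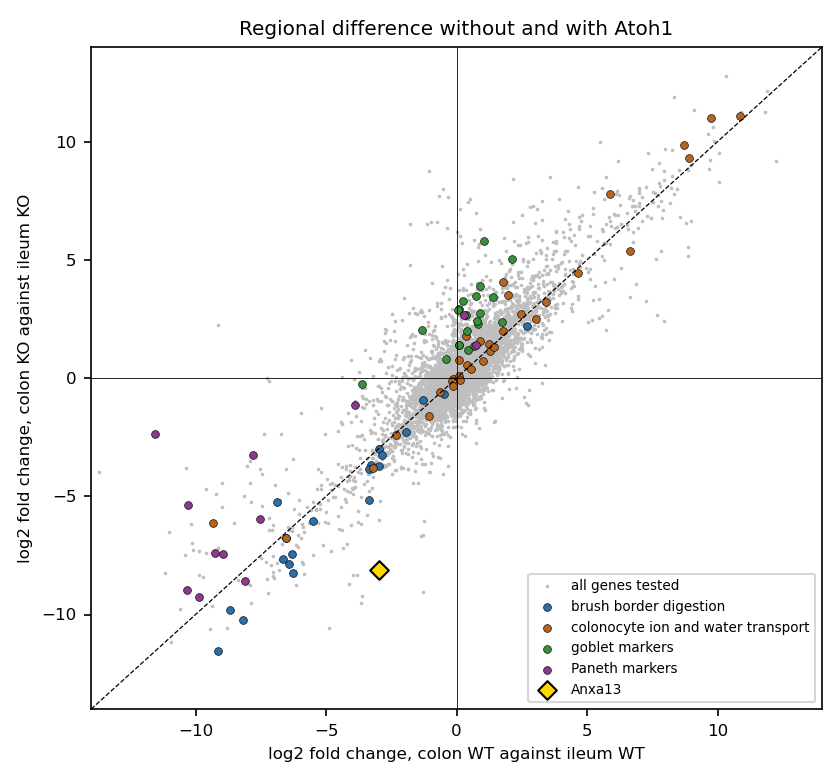
Each point is a gene, with the log2 difference of colon against ileum in WT on the x axis and in KO on the y axis, and the dashed line marks equal differences. Brush border and colonocyte transport genes lie near the line, goblet markers lie above it, and Anxa13 lies below it at -2.98 and -8.13.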

How the data were processed

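RNA-seq of 14 mouse libraries was analysed as raw counts per Ensembl gene, the values the authors deposited. Per the submitters' processing notes, the tools were TopHat 1.4.1 and HTSeq and the build was mm9. For HTSeq, neither the version nor the annotation and strand options are given in the sources used here. Symbols came from GENCODE M21 (31004 of 36536 genes matched).

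The 8 crypt libraries were fitted together by region and genotype with edgeR 4.0.16 in R 4.3.3 (filterByExpr, TMM factors, robust quasi-likelihood test). A Benjamini-Hochberg adjusted p under 0.05 over the 14415 genes tested made a call. Errors on log2 differences are standard errors, and intervals cover 95%. The 4 residual degrees of freedom and 2 libraries per group limit precision. Sorted cells were compared in a fit of all 14 libraries (15274 genes). The procedure was tested on simulated data.

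The members and the 25 gene lists (597 of 600 entries matched) were chosen with earlier results of these data known. Named genes are Atoh1, Hox genes, per direction the 15 called genes with the largest change (at least 20 CPM, no overlap) and the 10 most abundant, up to 8 called members per list and direction and 4 uncalled members, the called interaction gene and otherwise the 6 with the smallest p. Mgam, Slc5a1, Slc15a1, Dgat1, Slc26a3, Slc9a3, Nr3c2, Hsd11b2, Sgk1, Slc16a1, Gucy2c, Gata6, Cdx2, Smoc2 and Mki67 fall outside this rule and were chosen after their values were seen. Alternatives were DESeq2 1.42.0, other scalings, no filter, other sets of libraries, a replicate block and a 2-fold threshold.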

Additional observations from a re-analysis of the deposited data

Results flagged for a closer look

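Anxa13 was the gene whose regional difference itself differed between genotypes by the edgeR interaction term: the log2 difference of colon against ileum was lower in KO than in WT by -5.148 ± 0.25 (adjusted p = 0.00179), with -8.13 in KO and -2.98 in WT. The colon KO libraries stood below both colon WT libraries and the ileum KO libraries above both ileum WT libraries.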

How the results depend on the processing

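The 3699 calls between colon KO and ileum KO (1884 higher in colon, 1815 in ileum) became 876 (539 and 337) when a difference over 2-fold was tested with glmTreat, and 2394 (957 in ileum) in the fit of all 14 libraries. In a fit of only the 4 KO libraries 4826 of 13688 tested genes were called, 2592 higher in colon and 2234 in ileum. Leaving out 1 library gave from 1603 to 4814 calls, from 886 to 2455 in colon and from 717 to 2359 in ileum, the lowest without colon KO 2 and the highest without ileum WT 1. Without the genes higher in sorted cells, which was chosen after seeing the data, 1220 colon calls were left. The single interaction call became 9 without the filter on low counts, 52 with DESeq2, 57 without both WT 2 libraries (added after seeing the data) and from 0 to 335 with 1 library left out. Of 240 named genes called, 128 kept the call in every alternative run and 80 lost it in at least 1 fit without a KO library; of 99 not called, 45 were called in some alternative. No gene in these sets changed direction.

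Deviations from the group mean in colon and ileum libraries with the same replicate number had a correlation of 0.312 in KO and 0.267 in WT. With 2 libraries per group, both numbers give the same value by construction, and unlike numbers give it with the opposite sign. Each genotype thus gives 1 value. In KO the Xist and Ddx3y patterns also matched by number. The labels do not say that libraries of the same number share an animal or batch, and there are only 2 pairs per genotype. The block is therefore given as an alternative. With a replicate block within genotype, 2066 genes were called higher in colon and 1992 in ileum, with 2 interaction calls, and with the number alone as the block 1867 and 1745.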

Other observations

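Several of the largest or most abundant regional genes belonged to none of the lists. Tgm3, a transglutaminase that crosslinks proteins, stood at 524 and 317 CPM in colon KO and 0.206 and 0.298 in ileum KO (1589-fold; adjusted p = 0.000161). Lactoperoxidase (Lpo) stood at 85.5 and 81.6 CPM in colon KO and 0.206 and 0 in ileum KO, 2 counts in all for ileum KO. The antioxidant enzyme Prdx6 was abundant in both tissues, at 1987 and 2116 CPM in colon KO and 373 and 309.6 in ileum KO (6.01-fold; adjusted p = 0.000196). Tspan1, a membrane tetraspanin, stood at 1790.5 and 1926 CPM in colon KO and 525 and 477 in ileum KO (3.71-fold; adjusted p = 0.000203). The trans-Golgi protein gene Tgoln1 stood at 1737 and 1879.6 CPM in colon KO and 376 and 373 in ileum KO (4.83-fold; adjusted p = 4.92e-05). On the ileum side, Bcl2l15, a relative of the BCL2 cell death regulators, stood at 177 and 140.1 CPM in ileum KO and 0.279 and 0.272 in colon KO (551-fold; adjusted p = 4.44e-05). The amino acid transporter gene Slc7a15 stood at 63.1 and 65.3 CPM in ileum KO and 0.093 and 0.272 in colon KO (328-fold; adjusted p = 9.05e-05). For the genes with the largest change, no overlap between the colon and ileum libraries was a condition of choice.

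A second set of genes followed the replicate number of the KO libraries in both tissues. Ddx3y, on the Y chromosome, stood at 54.9 CPM in colon KO 1 and 50.8 CPM in ileum KO 1 but at 0.181 and 0.0993 CPM in the KO 2 libraries, the reverse of Xist. Trim12a stood at 22.7 and 0.0907 CPM in colon KO 1 and 2, and at 10.5 and 0.0993 CPM in ileum KO 1 and 2. Rbpj, the DNA-binding partner of Notch, stood at 14.6 and 5.72 CPM in colon KO 1 and 2, and at 15.8 and 6.06 CPM in ileum KO 1 and 2. With 0.5 CPM added, 42 genes differed by over 4-fold between the colon KO libraries and 57 between the ileum KO libraries. Of these, 23 did so in both with the same direction and 0 with opposite directions. In WT, 33 genes did so in both tissues with the same direction and 22 with opposite directions. The genes named in this paragraph were chosen after their values were seen.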
